A study of Mus musculus with 6 samples.

Results

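H3K27me3, the histone mark laid down by Polycomb repressive complex 2, was measured across the autosomes of mouse embryonic stem cells (ESCs) that lacked Dicer, with and without Dnmt1. The rule took every 2 kb tile of the 19 autosomes, 1236182 of the 1327469 tiles in the table, in 1 chromatin immunoprecipitation sequencing (ChIP-seq) library a side. Both lines carried a constitutive Dicer deletion made by CRISPR/Cas9 in cells with Dnmt1 alleles flanked by loxP sites. In the Dicer KO library the genotype was Dicer -/-, with Dnmt1 still present, and in the Dicer KO/Dnmt1 cKO library it was Dicer/Dnmt1 -/-, after tamoxifen had switched on a Cre recombinase that removes Dnmt1. Cells grew in serum with LIF, with or without feeder cells. The labels give the strain as E14, whereas the methods describe the Dnmt1 line as C57BL/6, and the time between tamoxifen and harvest was not given for these libraries. The Dicer deletion was isolated through colonies grown from single cells, and with 1 library per genotype the effects of culture, library and genotype cannot be told apart. No test was possible with 1 library a side, and every interval below is a 95% interval for counting error only. The intervals treat reads as independent, so reads copied by PCR would make them too narrow. H3K9me2 and H3K9me3, each in 1 library a side from the same genotypes, served for comparison.

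Polycomb repressive complex 2 methylates lysine 27 of histone H3, and in ESCs the mark covers CpG islands of silent developmental regulators, genes that must be kept off until a lineage is chosen. Dnmt1 copies DNA methylation onto the new strand after replication, so that its loss lowers CpG methylation across the genome as cells divide. The paper reports that some methylation remained after Dnmt1 deletion. Dicer cuts double-stranded RNA into microRNAs and small interfering RNAs. CpG islands are largely free of DNA methylation in ESCs, and most of the remaining genome is methylated.

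The largest changes occurred at gene starts of different CpG content. The 250 bases before the annotated start (NCBIM37, the build of the table, 5′ to 3′ on the strand of the gene, with CpG dinucleotides in capitals) are given for 6 genes. Dll4, which encodes a Notch ligand, had the highest level outside repeat-like windows, Pde8a (a cyclic nucleotide phosphodiesterase) had the largest loss, and Foxl2 (an ovarian transcription factor) had the largest loss among developmental regulators.

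Dll4 (chr2:119151270-119151519, plus strand): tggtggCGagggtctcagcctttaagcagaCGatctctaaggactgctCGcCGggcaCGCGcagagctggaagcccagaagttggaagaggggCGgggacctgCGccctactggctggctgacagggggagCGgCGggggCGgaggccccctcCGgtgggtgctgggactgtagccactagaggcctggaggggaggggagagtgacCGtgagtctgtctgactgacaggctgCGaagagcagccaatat
Pde8a (chr7:88358232-88358481, plus strand): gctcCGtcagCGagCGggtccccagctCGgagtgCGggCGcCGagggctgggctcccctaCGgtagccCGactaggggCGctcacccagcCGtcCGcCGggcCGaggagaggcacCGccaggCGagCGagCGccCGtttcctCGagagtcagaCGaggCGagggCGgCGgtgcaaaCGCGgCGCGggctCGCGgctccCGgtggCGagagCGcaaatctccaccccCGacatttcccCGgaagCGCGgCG
Foxl2 (chr9:98855776-98856025, plus strand): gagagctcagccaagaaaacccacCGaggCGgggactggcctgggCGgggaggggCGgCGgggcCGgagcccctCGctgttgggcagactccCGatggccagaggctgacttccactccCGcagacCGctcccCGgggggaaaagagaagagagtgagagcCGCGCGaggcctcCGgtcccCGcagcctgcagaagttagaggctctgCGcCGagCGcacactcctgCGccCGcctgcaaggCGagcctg

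Wdr20b (a WD repeat gene) had the largest gain, Ascl3 (a basic helix-loop-helix factor of gland ducts) the largest gain among developmental regulators, and Olfr943 the largest gain among olfactory receptors.

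Wdr20b (chr12:66326254-66326503, plus strand): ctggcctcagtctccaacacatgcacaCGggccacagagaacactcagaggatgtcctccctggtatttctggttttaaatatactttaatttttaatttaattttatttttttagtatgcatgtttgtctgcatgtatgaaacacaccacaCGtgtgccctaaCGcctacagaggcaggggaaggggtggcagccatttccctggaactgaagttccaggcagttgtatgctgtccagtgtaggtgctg
Ascl3 (chr7:116875247-116875496, minus strand): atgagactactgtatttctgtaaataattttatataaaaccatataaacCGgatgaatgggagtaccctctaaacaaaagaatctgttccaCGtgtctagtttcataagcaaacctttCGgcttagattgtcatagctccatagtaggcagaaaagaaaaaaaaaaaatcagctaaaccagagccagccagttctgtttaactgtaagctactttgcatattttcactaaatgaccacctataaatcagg
Olfr943 (chr9:38991515-38991764, plus strand): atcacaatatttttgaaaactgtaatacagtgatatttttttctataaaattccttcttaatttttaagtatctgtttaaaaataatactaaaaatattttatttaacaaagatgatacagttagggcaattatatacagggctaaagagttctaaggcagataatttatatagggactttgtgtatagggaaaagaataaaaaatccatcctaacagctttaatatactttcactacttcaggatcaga

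Upstream of Dll4, Pde8a and Foxl2 the 250 bases held 14, 38 and 22 CpG dinucleotides. Upstream of Wdr20b and Ascl3 they held 3 each, and upstream of Olfr943 they held 0. Over all 21418 protein-coding autosomal starts the median was 9, and 47.6% of starts had 10 or more. These 6 genes were picked for their values, so the contrast between them is a description only.

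The libraries held 27162045 (Dicer KO) and 21280804 (Dicer KO/Dnmt1 cKO) recovered reads, of which 97.2% fell on autosomes in each. The median tile held 18 and 14 reads. Levels are given as reads over the mean tile of the same library, so that 1 is the library average, and changes are log2 ratios of these levels, Dicer KO/Dnmt1 cKO over Dicer KO. They describe how each library's reads were distributed, and a uniform gain or loss of the mark would not show. The mark at the start of a gene does not check a deletion: the 6 kb around the Dnmt1 start held 17 and 15 reads, and those around the Dicer1 start 24 and 18.

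H3K27me3 was flatter after Dnmt1 deletion. Tiles at 3 or more times the library mean numbered 25092 in Dicer KO and 17713 in Dicer KO/Dnmt1 cKO, and tiles at 5 or more numbered 4209 and 1614. Strongly marked tiles thus became fewer. At the same time the 25th percentile of the level went from 0.440 to 0.499 and the median from 0.929 to 0.936. Neither moved by more than the level of a single read in Dicer KO/Dnmt1 cKO, so these percentiles alone do not resolve a rise in the lower part of the distribution. Averaged over both libraries, 906736 tiles held 10 reads or more, and of these 27699 (3.05%) were at least 2-fold higher and 25164 (2.78%) at least 2-fold lower after deletion. Most tiles held so few reads that counting error alone moves many of them past 2-fold. The balance of the directions turned with the tiles compared. Of the 209853 tiles averaging 30 reads or more, 642 were 2-fold higher and 2167 were 2-fold lower, whereas of 236482 tiles summed to 10 kb, 2027 were higher and 244 lower.

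The direction of the change followed the level of the surrounding chromatin. To keep a tile's own reads out of its grouping, tiles were sorted by the mean level of the tile on either side, averaged over both libraries. The 558 tiles at 5 or more in H3K9me2 or H3K9me3 were left out, and they went the other way, from a level of 16.2 to 20.2 (0.31). Where the neighbours lay below 0.25 the level went from 0.0989 to 0.121, a change of 0.29 (0.28 to 0.30). Around the library mean, with neighbours from 1 to 1.5, the change was -0.0032. With neighbours from 3 to 4 the level went from 3.48 to 2.98 (-0.22), from 4 to 6 it went from 5.28 to 4.01 (-0.40), and at 6 or more it went from 7.80 to 5.43 (-0.52, -0.54 to -0.51, over 711 tiles). Outside these tiles the most marked groups thus had the largest loss and the least marked had a gain. In the same tiles H3K9me2 changed by 0.15 in the lowest group and by 0.16 in the highest, and H3K9me3 by -0.05 and -0.0049. Neither mark had a loss of that size at the top, and H3K9me2 but not H3K9me3 was higher at the bottom. The groups were sorted by H3K27me3, and in the highest one H3K9me2 and H3K9me3 had Dicer KO levels of only 0.534 and 0.795. A loss from a high level of these marks could therefore not show there. A different share of background reads in the 2 libraries would give the same order from low to high levels, and with 1 library a side it cannot be told apart from a change of the mark.

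CpG density added to this order. Among tiles whose neighbours lay from 1 to 2, the change was -0.08 below 0.5 CpG per 100 bases, 0.07 from 1 to 2 CpG and 0.04 from 2 to 4, but -0.48 (-0.51 to -0.46, 1075 tiles) at 4 or more. Among tiles with neighbours at 3 or more it was -0.27 in the CpG-poorest tiles, -0.20 from 1 to 2 CpG per 100 bases and -0.60 (-0.61 to -0.59, 1842 tiles) at 4 or more. CpG-dense tiles with neighbours below 0.5, in contrast, changed by 0.28. Hence CpG density of 4 or more per 100 bases went with a loss only where the surroundings were near 0.5 or above.

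**Figure D1:**
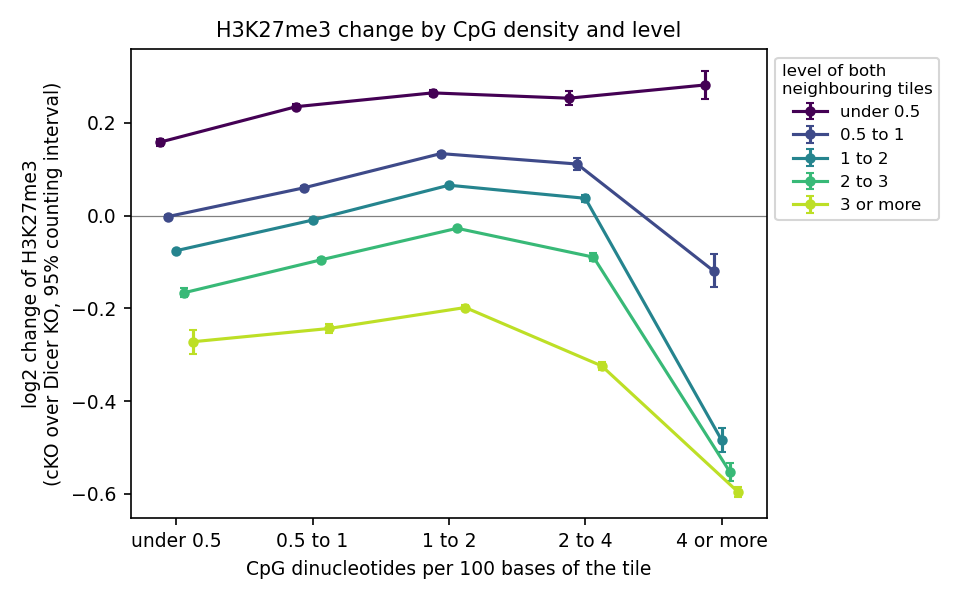
Log2 change of H3K27me3 (Dicer KO/Dnmt1 cKO over Dicer KO, vertical axis) in autosomal tiles grouped by CpG per 100 bases (horizontal axis) and by the level of both neighbouring tiles (colours). Bars are 95% counting intervals. All lines but the one for neighbours below 0.5 drop at 4 or more CpG per 100 bases, to between -0.12 and -0.60.

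Gene starts split in the same way. A promoter window was the tile of the annotated start and the tile on either side (6 kb), and starts were classed by CpG content over 1000 bases. Windows of the 8440 CpG-rich starts went from a level of 1.32 to 1.06, a change of -0.32 (-0.32 to -0.31). Centred on tiles of the same GC content, the change was -0.21. Windows of the 8471 CpG-poor starts went from 1.22 to 1.19, a change of -0.04 (-0.04 to -0.03), which became -0.0083 when centred on GC content and -0.075 under a trimmed mean. H3K9me2, at a level of 0.461 in Dicer KO, changed by 0.19 and H3K9me3 by -0.01 at the CpG-rich windows. Gene bodies outside promoter windows changed by 0.04 and the remaining genome by -0.01, and both values are close to or below the 0.04 by which the scalings tried here differed.

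Of the 21418 windows, 9440 held at least 100 reads over both libraries and were compared singly, which leaves out most windows with little mark. Among these, 42 (0.445%) were at least 2-fold lower after deletion and 7 (0.0742%) at least 2-fold higher. CpG-rich starts made up 36 of the 42 and 1 of the 7, out of 2523 compared, and 2288 of the 2523 lay below 0 with a median of -0.42. With a minimum of 20 reads, which keeps 8049 CpG-rich windows, the median was -0.06, beside -0.02 over the 20373 windows of all genes. Of the 5012 CpG-poor windows compared, 2806 lay below 0 and 2206 above it, with a median of -0.04. The number of CpG-rich windows at a level of 3 or more was 1252 in Dicer KO and 815 in Dicer KO/Dnmt1 cKO. Above a mean level of 5, all 336 CpG-rich windows were lower (median -0.53). Below 0.5, where most starts lie that carry little of the mark, the 4721 CpG-rich windows together went from 0.271 to 0.326, a change of 0.26 (0.25 to 0.28). H3K9me2 in these low windows, at a level of 0.360 in Dicer KO, changed by 0.23.

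Around CpG-rich starts of developmental regulators the level peaked 2 kb downstream of the start, at 5.85 in Dicer KO and 4.13 in Dicer KO/Dnmt1 cKO (-0.50). In the tile of the start it went from 5.69 to 3.63, a change of -0.65 (-0.68 to -0.62, 206 starts). The change was -0.27 at 4 kb upstream, -0.24 at 8 kb downstream and -0.11 at 50 kb upstream, so the loss was deepest at the start. Tiles of other marked starts or domains were not left out, so how far the loss reaches from a single start was not tested. At other CpG-rich starts the levels were lower, and the tile of the start went from 1.14 to 0.870 (-0.39). After deletion this tile lay below those at 2 kb upstream (0.999) and downstream (0.964). In Dicer KO the highest level was 1.18, at 2 kb downstream. From 8 kb downstream the change was slightly positive (0.04). At CpG-poor starts the tile of the start went from 1.27 to 1.23 (-0.05). H3K9me2 was low at the same CpG-rich starts, with Dicer KO levels of 0.287 at developmental regulators and 0.280 at the others. From there it was higher after deletion by 0.27 and 0.24.

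**Figure D2:**
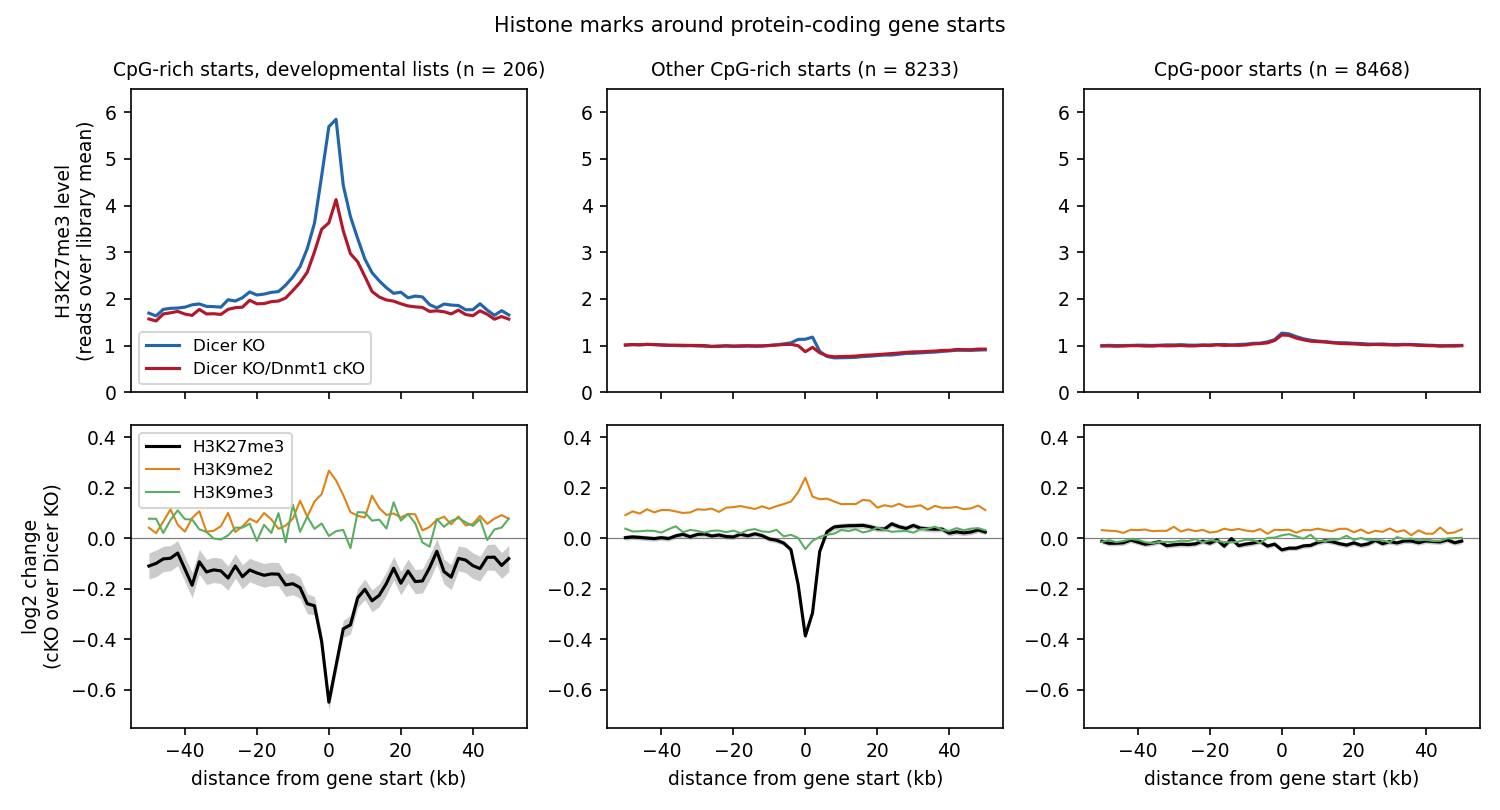
Mean H3K27me3 level in both libraries (top row) and log2 change of H3K27me3, H3K9me2 and H3K9me3 (bottom row, cKO standing for Dicer KO/Dnmt1 cKO) by distance from protein-coding starts, for 3 classes of start (n, the most starts with a usable tile at any distance). The grey band is the 95% counting interval of the H3K27me3 change, which reaches -0.65 at CpG-rich developmental starts, -0.39 at other CpG-rich starts and -0.05 at CpG-poor starts.

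Among the lists, those of developmental transcription factors had the highest median levels. They held a minority of the marked starts, since the 5 developmental lists made up 256 of the 2152 windows at a level of 3 or more in Dicer KO. The median level in Dicer KO was 6.09 over 122 homeobox genes outside the Hox clusters, 5.00 over the 40 Hox genes, 4.20 over 46 basic helix-loop-helix lineage factors, 4.12 over 75 genes of the Fox, Sox, Tbx and Gata families and 3.50 over 65 Wnt, Fgf, Bmp, Gdf and Hedgehog ligands, against 0.749 over all protein-coding genes. Neurotransmitter receptors and ion channels followed with 2.99 over 212 genes and clustered protocadherins with 2.77 over 24. Housekeeping genes lay at the bottom, with 0.212 for ribosomal proteins and 0.277 for proteasome and respiratory chain genes. Olfactory receptors (0.945) and vomeronasal receptors (0.798) sat near the library mean, like most of the CpG-poor genome.

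The 348 developmental genes of the first 5 lists together went from a level of 4.88 to 3.53, a change of -0.47 (-0.48 to -0.45). Of the 321 compared singly, 299 lay below 0 and 22 above it, with a median of -0.48, beside 6464 and 2976 of the 9440 windows over all genes with a median of -0.16. Other CpG-rich starts were closer, with 2103 of 2335 windows outside the developmental lists below 0 (median -0.40). Of all CpG-rich windows at a mean level of 3 to 5, 718 of 734 lay below 0 (median -0.44). Of the 321, 4 (1.25%) were 2-fold lower and 0 were 2-fold higher. The 2-fold lower share was 0.445% of all windows compared, but 1.37% of CpG-rich windows outside the developmental lists. Among CpG-rich developmental windows alone, 4 of 188 (2.13%) were 2-fold lower, too few windows to rank these shares. Windows at a level of 3 or more numbered 256 before and 215 after deletion. H3K9me2, at a level of 0.529 in Dicer KO, changed by 0.19 and H3K9me3 by 0.06 at the same windows.

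Homeobox genes outside the Hox clusters lay below 0 in 117 of 120 windows (median -0.52). Nkx1-1, a factor of the developing nervous system, had the most reads, 710 in Dicer KO and 372 in Dicer KO/Dnmt1 cKO, or levels of 11.6 and 7.73 (-0.58, -0.77 to -0.40). Evx2, next to the Hoxd cluster, had 702 and 347 reads (-0.66). Tlx3, which specifies sensory neurons, had the largest loss with 283 and 106 reads (-1.06, -1.40 to -0.74). Meox2, a factor of somites and muscle, was at the other end with 172 and 142 reads, a change of 0.08 whose interval included 0.

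Hox genes, which set position along the body axis, lay below 0 in 39 of 40 windows (median -0.46), none of them 2-fold. Hoxd11 had 646 and 318 reads (-0.67, -0.87 to -0.47) and Hoxb7 606 and 309 (-0.62). Hoxa2 had the largest loss (254 and 112 reads, -0.83). Hoxa10, the single gene above 0, had 169 and 143 reads (0.11, -0.22 to 0.44).

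Among the Fox, Sox, Tbx and Gata families 53 of 59 lay below 0 (median -0.43). Foxb2 (581 and 299 reads, -0.61) and Tbx2 (558 and 301, -0.54), a heart and limb factor, had the most reads. Foxl2 had 253 and 88 reads, or levels of 4.12 and 1.83 (-1.17, -1.54 to -0.82). Gata4, a factor of endoderm and heart, lay above 0 with 154 and 161 reads, levels of 2.51 and 3.35 (0.42, 0.09 to 0.74), and its annotated start is CpG-poor. Of the basic helix-loop-helix factors 40 of 45 lay below 0 (median -0.34), with the neuronal factors Neurog1 (642 and 334 reads, -0.59) and Neurod2 (594 and 339, -0.46) highest. Ascl3 had 46 and 60 reads (0.74, 0.16 to 1.32), near the library mean in both.

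Of the signalling ligands 50 of 57 lay below 0 (median -0.46). Wnt1, a midbrain signal, had 578 and 304 reads (-0.57), Fgf8 had 519 and 283 (-0.52) and Wnt7a had the largest loss with 305 and 134 (-0.83). Gdf2 lay above 0 (118 and 104 reads, 0.17), with an interval that included 0. Receptors and channels lay below 0 in 158 of 196 windows (median -0.31). Grm4, a glutamate receptor, had 544 and 272 reads (-0.65), and Cacna1g, a calcium channel, had 513 and 274 (-0.55).

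Other lists moved less or in both directions. Olfactory receptors lay below 0 in 307 and above in 269 of 576 windows (median -0.02), vomeronasal receptors in 60 and 60, and keratins with their associated proteins in 43 and 37, so these clusters of CpG-poor genes were balanced. Germline genes, many of which are silenced by DNA methylation, lay above 0 in 25 of 35 windows with a median of 0.05. Tdrd9, a helicase of the piRNA pathway, had 62 and 71 reads (0.55, 0.04 to 1.06), and Tdrd6, the most marked of the list, had 319 and 211 (-0.24, -0.50 to 0.01). Imprinted genes lay below 0 in 17 of 19 windows. Of these, Cdkn1c, a brake on the cell cycle, had 469 and 214 reads (-0.78) and Grb10, an inhibitor of growth factor signalling, had 465 and 278 (-0.39). Clustered protocadherins lay below 0 in 18 of 24 windows (median -0.19), cytochrome P450 genes in 41 of 64 (-0.08), defensins in 23 of 36 (-0.14), Zfp genes in 41 of 56 (-0.22) and replication-dependent histone genes in 13 of 20 (-0.21), beside 68.5% of all windows compared. For lists with little mark these values rest on the few members above 100 reads. With a minimum of 20 reads the median was 0.16 over 313 Zfp genes and -0.02 over 56 histone genes.

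**Figure D3:**
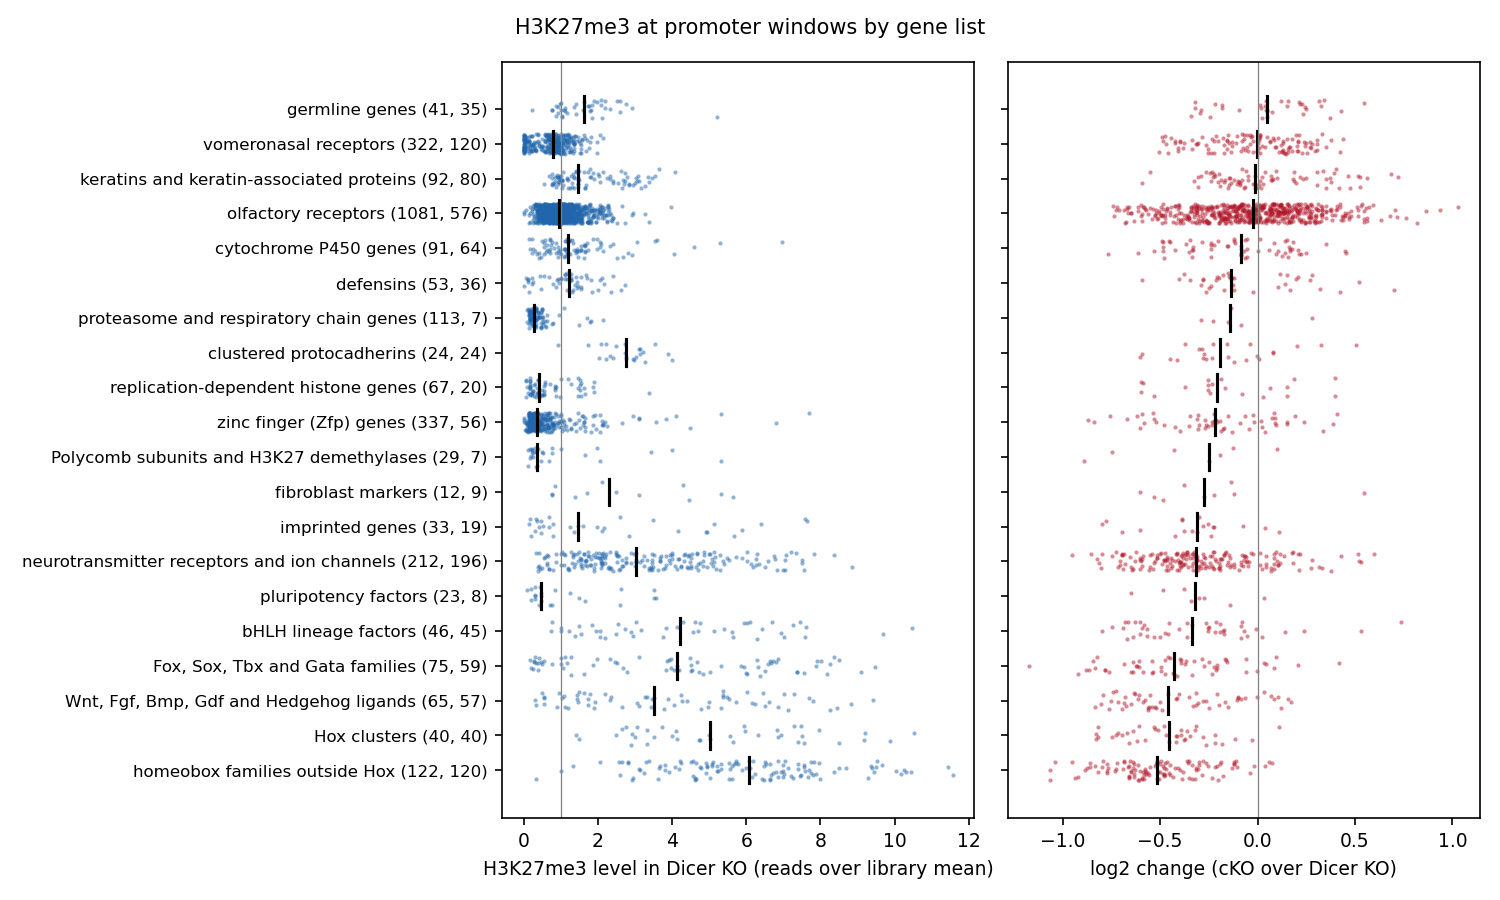
H3K27me3 level in Dicer KO (left, all members, 1 being the library mean) and log2 change in Dicer KO/Dnmt1 cKO (right, members with at least 100 reads) at the promoter windows of each list. Points are genes, black bars are medians, and the numbers beside each name are members and members compared. The lists with the highest levels, homeobox and Hox genes, have medians of -0.52 and -0.46, and olfactory and vomeronasal receptors sit around 0.

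Genes of the chromatin machinery itself were mostly little marked, so that few could be compared. Of 29 Polycomb subunits and H3K27 demethylases (median level 0.358) 7 could be compared and 6 lay below 0, and with a minimum of 20 reads the median was 0.08 over 28. Bmi1, a subunit of Polycomb repressive complex 1, had 327 and 138 reads (-0.89, -1.19 to -0.60), and Cbx8, another subunit, had 246 and 143 (-0.43). Of 17 genes of DNA methylation 4 could be compared and all 4 lay below 0, whereas the median with a minimum of 20 reads was 0.14 over 16. Among the 4 were Dnmt3a, a de novo methyltransferase, at 83 and 37 reads (-0.81) and Dnmt3l, its cofactor, at 113 and 78 (-0.18, -0.62 to 0.25). Of 10 small RNA genes 1 could be compared, the Argonaute gene Eif2c4, with 70 and 46 reads (-0.25, -0.82 to 0.30), and the median with a minimum of 20 reads was 0.07 over 9. Among cell cycle inhibitors Cdkn2c had 90 and 31 reads (-1.19).

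The marks at cell type genes were checked in the same windows. Pluripotency factors were little marked, with a median level of 0.472 in Dicer KO and 0.478 in Dicer KO/Dnmt1 cKO over 23 genes. Nanog had levels of 0.440 and 0.312, Sox2 0.456 and 0.520, and Pou5f1 0.831 and 0.749. The most marked were Prdm14 (219 and 142 reads, -0.27) and Lin28a (215 and 137 reads, -0.30), with intervals that included 0. Of 8 pluripotency factors compared 7 lay below 0, 3 of them with intervals below 0. Summed over the 23 the change was -0.23 (-0.34 to -0.12), and windows at a level of 3 or more numbered 3 in Dicer KO and 0 after deletion. Fibroblast genes, listed because feeder cells may be used in culture, had median levels of 2.30 and 2.19 over 12 genes, and 8 of 9 compared lay below 0. Among them Twist2 had 347 and 188 reads (-0.53) and Postn had 104 and 119 (0.55, 0.15 to 0.94). These are levels of a histone mark and not of expression, and a part of other cells in these values was not tested.

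The largest single losses were at CpG-rich starts outside the developmental lists. Pde8a had 224 and 64 reads, levels of 3.65 and 1.33 (-1.46, -1.88 to -1.05). It was followed by Oxr1, an oxidative stress gene, with 93 and 27 reads (-1.43), Ccdc85c with 115 and 34 (-1.41), Gm1614 with 172 and 51 (-1.40), Efna5, an ephrin of axon guidance, with 210 and 66 (-1.32), and Spry1, an inhibitor of receptor tyrosine kinase signalling, with 99 and 32 (-1.28). Ctif, the overlapping windows of Gm7854 and Cpeb2 (counted once), Pik3c2b and 3110039M20Rik completed the 10 and lay between -1.28 and -1.12. All of these starts are CpG-rich, and in most of them the level was near or below the library mean after deletion.

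The largest single gains rested on few reads. Wdr20b had 38 and 70 reads, levels of 0.619 and 1.46 (1.23, 0.64 to 1.84). The CpG-rich 1700017B05Rik had 40 and 66 (1.07), Gm410 had 41 and 67 (1.06), Olfr943 had 40 and 64 (1.03), and Mepe, a bone matrix gene, had 44 and 70 (1.02). A730045E13Rik, 1700022P22Rik, ORF63, Olfr1179 and Rtp3 followed with changes between 1.02 and 0.94. These windows were below or near the library mean in Dicer KO, and no gain of this size occurred at a strongly marked start.

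Most of the highest levels lay at starts that map to satellite-like repeats. Gm10800 had 71177 and 81121 reads, a level of 1160 in Dicer KO and 1687 after deletion, and its level in H3K9me3 was 14805 in Dicer KO. Gm10801, Gm10717, Gm10718, Gm10722 and their neighbours behaved alike, with changes from 0.46 to 0.59. Sfi1, also among the highest, differed, with a change of 0.27 and a change of 0.22 in H3K9me3. Reads from many repeat copies may be counted at these few annotated places, so the values are uncertain for any 1 copy. Windows with a tile at 5 or more in H3K9me2 or H3K9me3 numbered 38. Among the highest outside them, a choice made after the values were seen, were Dll4 (777 and 390 reads, levels of 12.7 and 8.11, -0.64), Prdm12, Nkx1-1, Evx2, Ebf3, Egr3, Pax7, Skor1 and Nptx1. Their changes ran from -0.50 for Pax7, a muscle and neural crest factor, to -0.83 for Ebf3, a neuronal factor, and none of their intervals included 0.

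H3K27me3 domains were runs of tiles at 3 or more times the library mean, smoothed over 3 tiles and averaged over both libraries. There were 2345 on the autosomes, holding 5.02% (5.02 to 5.03) of the Dicer KO reads and 4.32% (4.31 to 4.33) of the Dicer KO/Dnmt1 cKO reads, a change of -0.22 (-0.22 to -0.21). This sum mixes opposite changes. The 52 domains with a tile at 5 or more in another mark went from a level of 21.2 to 25.9 (0.29), and the other 2293 went from 4.53 to 3.63 (-0.32, -0.33 to -0.32). Centred on tiles of the same GC content, the change over the 2293 was -0.22, and over all 2345 it was -0.13. Leaving out the 52, a choice made after the values were seen, the domains covered 25.3 Mb, or 1.02% of the tiles, and held 4.32% and 3.46% of the reads. H3K9me2 changed by 0.11 and H3K9me3 by 0.08 inside them. In the 52 domains left out, H3K9me2 was high and went from a level of 33.4 to 27.8 (-0.27).

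Of the 2293 domains 2131 (92.9%) were lower after deletion and 162 higher, with a median of -0.31 and quartiles of -0.44 and -0.17. The counting interval lay below 0 in 1470 and above 0 in 4. No domain was 2-fold lower or higher. A protein-coding start lay in 1325 of them (57.8%), a CpG-rich one in 854 and a developmental one in 210. Medians were -0.40 over 146 domains with a CpG-rich developmental start, -0.39 over 708 with another CpG-rich start, -0.32 over 471 with starts that are not CpG-rich and -0.21 over 968 with no start. Their median levels in Dicer KO were 5.29, 4.67, 4.40 and 3.72, so the classes with the larger loss also had the higher level.

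The longest domains covered Hox clusters. The Hoxc domain (chr15:102736001-102830000, 94 kb), with the starts of Hoxc13 to Hoxc6, held 5989 and 3561 reads, levels of 6.23 and 4.73 (-0.40, -0.46 to -0.34). The Hoxb domain (chr11:96132001-96220000, 88 kb), from Hoxb9 to Hoxb2, held 5873 and 3472 reads (-0.41, -0.47 to -0.35). Next came intergenic domains of 78 kb (chr5:119472001-119550000, 3365 and 2100 reads, -0.33), 68 kb (chr15:102912001-102980000, -0.20) and 66 kb (chr7:86640001-86706000, -0.38), which overlapped no protein-coding gene. The Evx2 and Hoxd domain (chr2:74482001-74536000, 54 kb) had a level of 8.01 in Dicer KO and 5.55 after deletion (-0.53, -0.60 to -0.46). At the Hoxa cluster only short domains were called, of which the one with Hoxa2 (chr6:52114001-52132000, 18 kb) held 861 and 416 reads (-0.70).

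**Figure D4:**
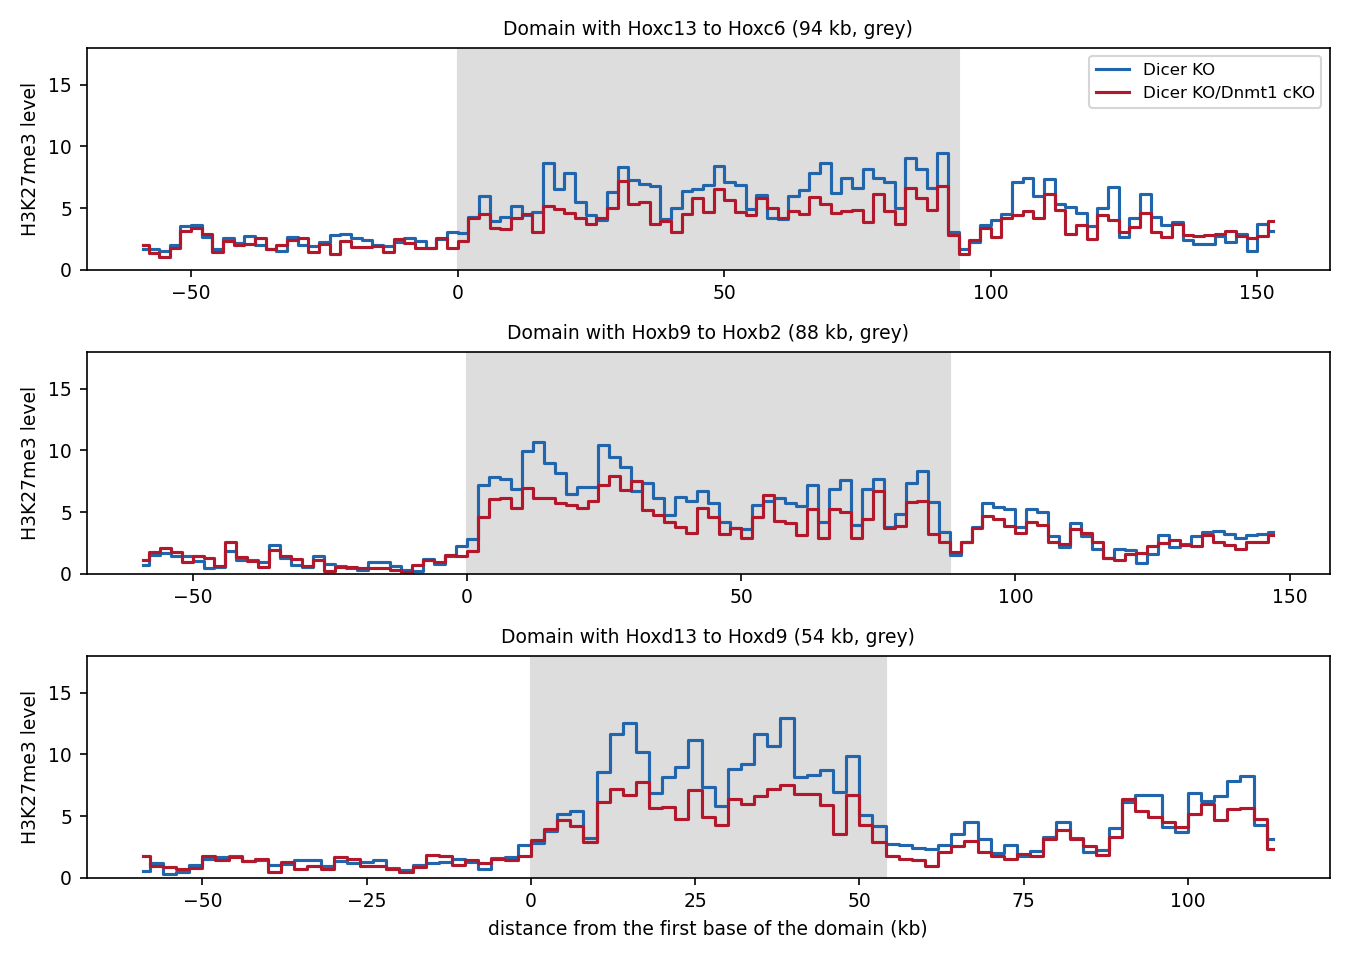
H3K27me3 level per 2 kb tile in Dicer KO and Dicer KO/Dnmt1 cKO across the Hoxc (94 kb), Hoxb (88 kb) and Hoxd (54 kb) domains, shaded, with 60 kb on either side, by distance from the first base of the domain. The line for Dicer KO/Dnmt1 cKO lies below that for Dicer KO over most of each domain and meets it outside.

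The 6 domains with the largest losses were 6 or 8 kb long, although medians differed little with length (-0.30 below 10 kb and -0.33 at 20 kb or more). They lay at Tchh, a hair follicle gene (398 and 157 reads, -0.99, -1.27 to -0.72), Lrp2, an endocytic receptor (280 and 112, -0.97), Gsc2, a homeobox gene (399 and 161, -0.96), a site 3.11 kb from the Dgkh start (392 and 160, -0.94), Htr1b, a serotonin receptor (280 and 115, -0.93), and Bmi1 (350 and 144, -0.93). The 4 domains whose interval lay above 0 held no protein-coding start. They lay within Vdr (171 and 177 reads, 0.40, 0.09 to 0.71), across Ggt1 and Gm17269 (228 and 226 reads, 0.34), within Gabbr2 (188 and 182 reads, 0.31) and 112 kb from the Pitx1 start (343 and 323 reads, 0.27).

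The loss did not come with a gain beside the domains. From the border inwards the change was -0.23 in the first 2 kb, -0.34 from 2 to 4 kb and between -0.39 and -0.36 deeper inside. Outwards it was -0.12 (-0.13 to -0.11) in the first 2 kb, -0.05 from 8 to 10 kb and -0.03 from 18 to 20 kb. It was -0.0075 from 20 to 50 kb, 0.01 from 50 to 100 kb and 0.02 from 100 to 500 kb. Summed over all tiles outside domains the level was 1.00 and 1.01 (0.01), a value whose sign depended on the scaling, with -0.03 under a trimmed mean. No distance class within 50 kb of a border was higher after deletion. The domains high in another mark, described above, were higher and stand apart from these values.

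**Figure D5:**
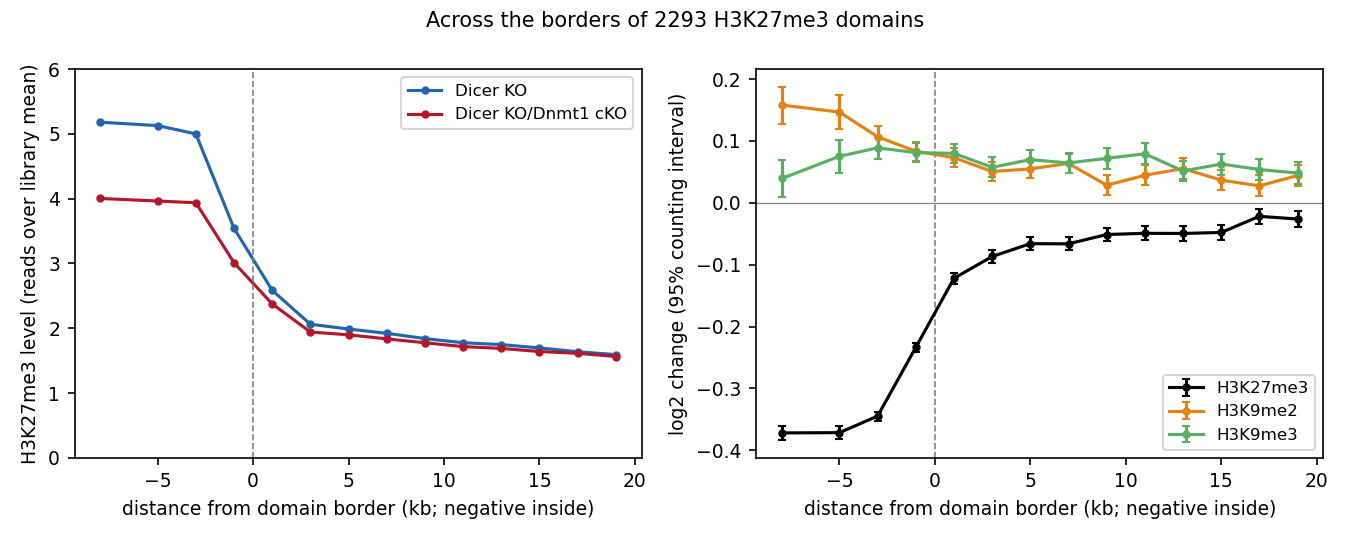
H3K27me3 level (left) and log2 change of 3 marks (right, with 95% counting intervals) by distance from the border of 2293 domains, negative inside. The H3K27me3 change goes from -0.37 inside to -0.03 at 18 to 20 kb outside, while H3K9me2 and H3K9me3 stay above 0 on both sides.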

How the data were processed

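H3K27me3, H3K9me2 and H3K9me3 ChIP-seq libraries of Dicer KO and Dicer KO/Dnmt1 cKO ESCs were analysed, 1 library per mark and genotype. Per the methods, the authors used Trim Galore for trimming and Bowtie2 for alignment to NCBIM37, and discarded reads of low mapping quality. The deposited values are log2 observed over expected reads per tile, in 2 kb tiles here although the methods name 1 kb. The submitters' processing notes name Bowtie and NCBIM37. Of 25 value columns 19 were not used, including an input column that matched no sample label. Without an input, mappability and copy number were not corrected.

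Whole reads were recovered from the log2 values of all 6 libraries (tolerance 0.1 read, at most 1 value per library off) and totalled 16834940 to 27162045 per library. Because there was 1 library a side no count test was run. Reads were divided by the library total, and levels by the mean tile over all chromosomes in place of the planned autosomal mean, a constant factor that leaves ratios as they are. Intervals are exact Clopper-Pearson intervals at 95%. Domains are runs of at least 3 tiles whose 3-tile running mean is 3 or more, joined over gaps of 1 tile. CpG-rich starts have an observed over expected CpG ratio of at least 0.6 and a GC fraction of at least 0.55 over 1000 bases, and CpG-poor starts a ratio below 0.4. Genes came from GENCODE M1, with chromosome lengths equal to those of the table. Named genes are the 10 highest levels, the 10 largest gains and losses among windows with at least 100 reads, up to 4 examples per list, the longest domains, and Dnmt1 and Dicer1. Gata4, Tchh and the other domains named for their change, the pluripotency factors named by level and the domains whose interval lay above 0 include items chosen after their values were seen. Some genes that this rule selects are not reported here. The members and lists were chosen with earlier results of these data known. Alternatives were 3 other scalings, centring on GC in 50 bins, removal of the most read-rich 0.1% of tiles, other minimums, tile sizes, domain thresholds and window sizes. The steps were tested on simulated data. Python 3.11.15, numpy 2.4.6, pandas 2.3.3, scipy 1.17.1 and matplotlib 3.10.9 were used.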

Additional observations from a re-analysis of the deposited data

How the results depend on the processing

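Of 69 alternatives 23 stayed within the counting interval (or within 1.5 times, for counts of tiles), 45 moved further and 1 changed sign. In domains, at CpG-rich windows, at CpG-poor windows and at developmental windows the change stayed below 0 under every alternative. Under a trimmed mean of log2 ratios the changes were -0.26 inside domains, -0.027 outside (reversed from 0.012), -0.36 at CpG-rich, -0.075 at CpG-poor and -0.51 at developmental windows. Scaled to the reads outside domains they were -0.23, 0, -0.33 and -0.048 for the first 4, and scaled to a median log2 ratio of 0 the value outside was 0.013. Centred on GC content they were -0.13, 0.0064, -0.21, -0.0083 and -0.33. Without the 0.1% of tiles with most reads they were -0.28 inside domains, -0.28 at CpG-rich and -0.41 at developmental windows, the difference in the share of reads in domains was -0.65 points instead of -0.71, and the Dicer KO level of developmental windows was 3.77 instead of 4.88. Tiles 2-fold higher and lower numbered 642 and 2167 with a mean of at least 30 reads, 2027 and 244 of 236482 when summed to 10 kb, and the higher ones 74221 with no minimum and a pseudocount of 1 read. Domains at 2 or more gave -0.11 inside, 0.026 outside and -1.41 points, and domains at 5 or more gave -0.066, 0.0014 and -0.063. Without domains high in another mark these insides were -0.13 and -0.50. Domains called in Dicer KO alone gave -0.25, 0.016 and -0.95, those called in Dicer KO/Dnmt1 cKO alone gave -0.16, 0.0071 and -0.43, and those without a tile high in another mark, chosen after seeing the data, gave -0.32 and -0.86 points. Of the 2993 domains of Dicer KO alone 54.3% touched a domain of the other library, and of its 1851 domains 91.5% did. Windows of 1 tile gave -0.42, -0.045 and -0.56 at CpG-rich, CpG-poor and developmental starts with a developmental level of 5.24, and windows of 5 tiles gave -0.23 and -0.41 at CpG-rich and developmental starts with a level of 4.41. The cause of these differences was not tested, apart from the fewer tiles or domains compared. No paired analysis was possible because there was 1 library a side, which also leaves no replicate to leave out. At 14 to 18 reads in the median tile, single tiles resolve no change below 2-fold, and no test of genotype can be had from these libraries.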

Other observations

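Gene types other than protein-coding were compared by the same 6 kb windows, summed over members. Windows of 1232 lincRNA starts went from a level of 1.42 to 1.20, a change of -0.24 (-0.26 to -0.23), beside -0.11 over protein-coding starts and -0.07 over 2437 processed transcripts. The protein-coding sum includes the satellite-like windows, which went up, and the median over the 9440 protein-coding windows compared singly was -0.16. CpG density was 2.14 per 100 bases in the lincRNA windows and 1.84 in the protein-coding ones. Pseudogenes (4055 starts) changed by -0.01 and snRNA genes (1331 starts) by 0.03. H3K9me2 changed by 0.14 at the lincRNA windows. These windows can overlap promoter windows of protein-coding genes.

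By 1 Mb bin the change was small whatever the number of CpG-rich starts in the bin. It was -0.01 over 740 bins with none, 0.01 over 568 bins with 3 to 5 and -0.04 over 18 bins with 21 or more. H3K9me2 changed by -0.04 in bins with none, where its Dicer KO level was 1.00. In bins with 21 or more it changed by 0.19, from a lower Dicer KO level of 0.596.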
